A study of Mus musculus with 4 samples.

Results

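Regions annotated as lying inside genes, with no promoter probe among their own, were compared between young and old mouse intestine. They were 3505 of the 20454 autosomal regions on a pair of custom Agilent arrays, or 17.1%, and came from 3336 genes and 9770 probes. A region is a run of neighbouring probes of the same gene name with gaps of at most 1000 bp, and it was kept here when the array's annotation put every one of its probes in the class INSIDE. The samples were intestinal genomic DNA of the inbred mouse strain C57BL/6, with no further allele or treatment named in the labels, at 3 months and at 32 months of age. The 3-month DNA was labelled green (Cy3) and the 32-month DNA red (Cy5) on both arrays, with 1 sample per age and array and no exchange of dyes. No test across animals was therefore possible, an age difference cannot be told apart from a dye difference, and no p-value is given. Intestine is a mixture of cell types, so a change in methylation within cells and a change in the share of cells cannot be told apart. DNA carries no expression, so the tissue could not be checked by marker genes.

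In mammals DNA methylation sits mainly on the cytosine of CpG dinucleotides. Most CpG sites within transcribed gene bodies are methylated in most tissues, whereas CpG islands at promoters are mostly kept free of it. Gene bodies can also hold islands of their own, alternative start sites and enhancers, and ageing is known both for gains at islands that were free of methylation and for losses elsewhere. The title of the series concerns changes of DNA methylation with age across tissues, and only intestine was analysed here. Brightness on the arrays is read as the amount of selected DNA. The step that selects it by methylation is not given in the sources used here, so values are given as signal and not as a methylation level.

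At a median log2 ratio of 0.01 between 32 and 3 months, the inside-gene regions as a group stood where the array did. Of 2111 measured regions, 45 (2.13%) were called higher and 14 (0.663%) lower at 32 months. Among all 14443 measured autosomal regions the same shares were 2.07% and 0.526%. The inside-gene shares therefore lay near the background in both directions. Among regions with at least 3 usable probes, the leading members that were higher lay in Dtx1, a regulator of Notch signalling, Kcnk4, a background potassium channel, and Apoa4, an apolipoprotein of the intestinal epithelium, while Arhgef3, a guanine nucleotide exchange factor, led those that were lower. A region was measured when at least 2 of its probes carried no outlier flag and stood well above background in at least 1 channel. Its value is the median over those usable probes of the log2 ratio of red over green signal, after subtraction of the array median. It was called when that median reached 1, a 2-fold difference, and all usable probes had the sign of the median. Errors are SDs over the probes of a region, which share the same DNA samples.

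Most probes gave signal on both arrays. Between 70.1% and 72.5% of probes stood well above background in each sample and array, and no probe was flagged as saturated. Chromosomes 1 to 8 lay on the first array and most of chromosomes 9 to 19 on the second, so array and chromosome cannot be told apart. Of the 1394 inside-gene regions that were not measured, 1000 held a single probe. The measured regions numbered 1078 (first array) and 1033 (second array). In 1609 of the measured regions every usable probe passed background in both samples, and those held 38 of the higher and all 14 of the lower calls. The median mean signal of a region was 670.1 at 3 months and 662 at 32 months for the first array, and 396 and 408 for the second.

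The probes behind the leading regions are shown here with pieces of their sequences, because these show which probes hold CpG sites. A whole probe can hold more sites than its piece. Each line gives the 30 bases of a probe with the most CpG sites, 5′ to 3′ as in the scanner file, whose strand is not stated, with CpG in capitals. Positions are those of the array design, whose genome build is not given in the sources used here.
Dtx1, chr5:120970886-120970930: cagccCGttcacCGgcaccatcacaccttg
Dtx1, chr5:120971170-120971214: taggcaatgtctgtcctaggtgggggacat
Dtx1, chr5:120971592-120971636: cctgcaggggCGacaagaaggagaaagggc
Dtx1, chr5:120971717-120971761: tgcagtccctggggtaccCGgagaacagCG
Dtx1, chr5:120971901-120971945: tgggatgcagggattCGagttcaagatgCG
Apoa4, chr9:45991909-45991953: ctgtcagcttccaCGttgtcttagggccac
Apoa4, chr9:45992071-45992115: cacaggtacacCGtttcttctgactcCGgg
Apoa4, chr9:45992412-45992458: caggagagagatgatcctcataaagttgcc
Pear1, chr3:87846055-87846101: ggaaggtcaaacaccacagagagtgcaaag
Pear1, chr3:87846303-87846352: aaggacacatctgcaaagattcaagcagga
Pear1, chr3:87846452-87846496: aatgctccaacttccccagagcagtgctcc
Pear1, chr3:87847261-87847305: taacaaacagcaggacaccacagtgcaaaa
The probe of Dtx1 at offset 284 bp, the third of Apoa4 and all 4 of Pear1 held no CpG over their whole length. Among all 6391 usable probes of the inside-gene regions, 38.9% had no CpG, against 41.4% in regions annotated as promoter only.

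Dtx1 encodes an E3 ubiquitin ligase of the deltex family that modulates Notch receptors. Its inside region (chr5:120970886-120971945) held the brightest called values. The 5 probes read 49500, 73500, 20700, 32000 and 14100 at 3 months, and 277000, 479000, 109000, 188000 and 137000 at 32 months. Every probe was brighter in the old sample, as a call requires, and no 32-month value fell as low as any 3-month value. The region was higher by 2.55 ± 0.35 on the log2 scale (SD over 5 probes), or 5.86-fold, and lay 38569 bp from the nearest probe of any promoter class.

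Apoa4 encodes apolipoprotein A-IV, which enterocytes secrete on lipid particles. Its 3 probes read 1380, 242 and 1590 at 3 months and 4780, 2150 and 13400 at 32 months. The region rested on all of them and was higher by 3.21 ± 0.76 (SD over 3 probes), or 9.28-fold, the largest value among called inside-gene regions. It was the only measured inside-gene region among 58 genes listed for the intestinal epithelium. The nearest probe of any promoter class lay 450 bp from the region. A measured region of the divergent promoter that Apoa4 shares with Apoc3, 4817 bp away, had 0.29 ± 0.38 over 3 probes and was not called.

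Kcnk4 encodes a potassium channel that sets resting membrane potential in neurons. Its 4 probes read 2650, 321, 10700 and 39700 at 3 months and 17100, 2750, 46900 and 154000 at 32 months, which gave 2.55 ± 0.52 (SD over 4 probes). The difference did not stop at the region's edge. A region of Catsperz, named 1700019N12Rik on the array and annotated as inside and promoter, ended 100 bp away and had 2.56 ± 0.35 over 4 probes. The promoter-bearing region of Kcnk4 itself, 7886 bp away, had 0.90 ± 1.01 over 6 probes and was not called.

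**Figure D1:**
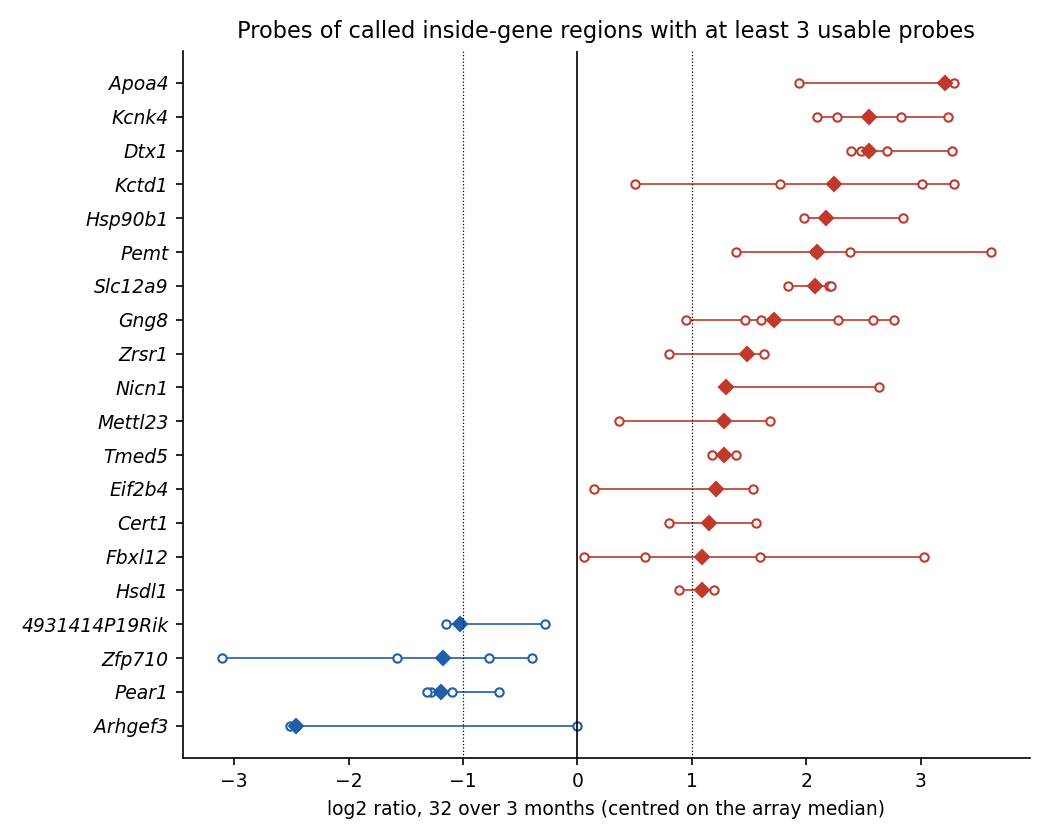
Log2 ratio of 32 over 3 months (x axis, centred on the array median) for the usable probes (open circles) and the median (diamond) of each called inside-gene region with at least 3 usable probes, red for higher and blue for lower, with dotted lines at 1 and -1. The probes of Slc12a9 and Tmed5 lie close together, whereas those of Fbxl12 and Arhgef3 spread from near 0 to far past the threshold and those of Kctd1 from 0.50 to 3.29.

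Slc12a9, a member of the cation-chloride cotransporter family, had the smallest spread over probes among the higher regions past 4-fold. Its 5 probes (chr5:137544341-137545031) read 11500, 24500, 13800, 21200 and 19200 at 3 months and 52800, 103000, 64300, 76000 and 81000 at 32 months. No 32-month value fell as low as any 3-month value. The region was higher by 2.07 ± 0.15 (SD over 5 probes). The adjoining region, named for Trip6, which encodes an adaptor protein of cell adhesions, began 490 bp earlier (chr5:137543851-137544031) and was chosen for description after its values were seen. Its probes read 10200 and 18200 at 3 months and 52000 and 71500 at 32 months, which gave 2.16 ± 0.27 (SD over 2 probes). Only 310 bp separate the 2 regions, so their 7 probes form a single stretch, and each of them was higher by 1.84 to 2.35. The sequences are shown because 4 of these 7 probes held no CpG and gave the same ratio as the rest.
Trip6, chr5:137543851-137543895: ggacatggtctggaatagggttactccact
Trip6, chr5:137543981-137544031: aaagaaactttttctggctttttttcctcc
Slc12a9, chr5:137544341-137544400: gcccatagtgtttCGgtcttttatttatgg
Slc12a9, chr5:137544464-137544508: ctgaggtagcctagagtcacagaagaggcc
Slc12a9, chr5:137544712-137544759: ctctatccaaccctgtatgaacaggcatca
Slc12a9, chr5:137544836-137544881: tagCGagcaggatcagcaggCGgtCGaggc
Slc12a9, chr5:137544987-137545031: ctagagcctcagcctcttCGtctcctCGac
The promoter-bearing region of Slc12a9, 17956 bp away, had -0.14 ± 0.46 over 4 probes.

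**Figure D2:**
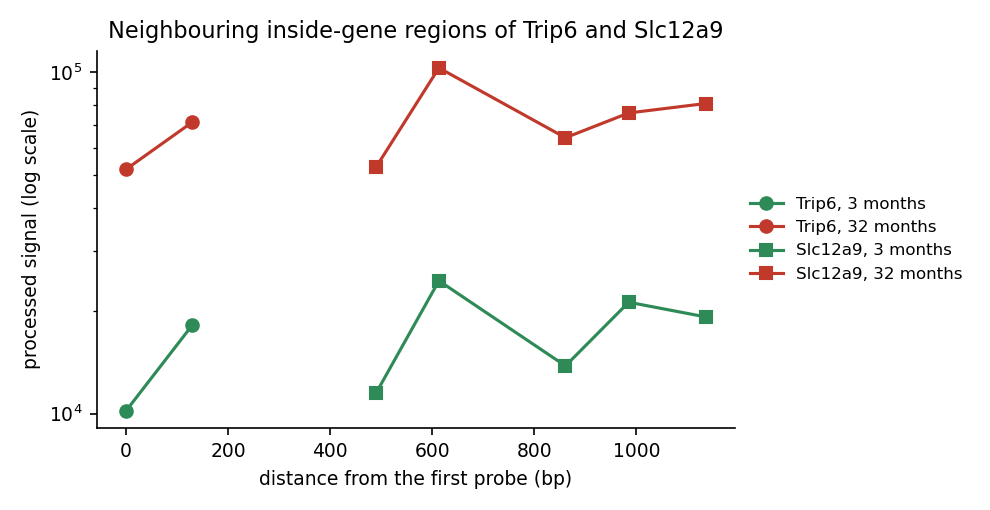
Processed signal (y axis, log scale) of the probes of the Trip6 (circles) and Slc12a9 (squares) inside-gene regions against distance from the first probe in bp, at 3 months (green) and 32 months (red). The 32-month values run from 52000 to 103000 and the 3-month values from 10200 to 24500, without overlap.

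Further regions were higher over several probes. Hsp90b1, the endoplasmic reticulum chaperone also known as GRP94, had signals of 133, 817 and 1620 at 3 months and 869, 2920 and 6640 at 32 months, a difference of 2.17 ± 0.46 over 3 probes. Pemt, which makes phosphatidylcholine by methylating phosphatidylethanolamine, was higher by 2.09 ± 0.82 over 5 probes. Its 3-month signals lay between 196 and 549 and its 32-month signals between 1060 and 2590, without overlap. A single probe of the 5, the first, held CpG sites. Gng8, a G protein gamma subunit, was higher by 1.71 ± 0.65 over 7 probes, the most of any called inside-gene region named here. Its 3-month signals lay between 3360 and 9620 and its 32-month signals between 13600 and 31800.

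Of the higher regions with 2 usable probes, Abhd14a, a hydrolase, and Adcy5, an adenylyl cyclase, had medians of 2.92 ± 3.07 and 2.71 ± 2.40, above those of Kcnk4 and Dtx1. In each a single probe carried most of the difference. The probes of Abhd14a read 418 and 663 at 3 months and 637 and 20500 at 32 months. Those of Adcy5 read 3400 and 14400 against 6200 and 277000. Both genes were named after their values were seen.

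Kctd1, a transcriptional regulator with a BTB domain, had 2.24 ± 1.11 over 5 probes, from 0.50 at its dimmest probe to 3.29. That call was lost when dim probes were kept, since a sixth, dim probe had -0.13, and the median was then 2.01. Zrsr1, an imprinted gene for a splicing factor relative, had 130, 67.2 and 955 at 3 months against 365, 170 and 1510 at 32 months and was higher by 1.48 ± 0.44. Nicn1, a subunit of a tubulin-modifying complex, had 67.4, 324 and 99500 against 379, 724 and 221000, or 1.30 ± 0.77, and the neighbouring region named EG434437, 229 bp away, had 1.36 ± 0.11 over 4 probes. Tmed5, a cargo receptor of the early secretory pathway, was higher by 1.28 ± 0.10 over 3 probes, with signals of 643, 612 and 419 against 1680, 1390 and 1020. Mettl23, a methyltransferase named 1110005A03Rik on the array, had 1.28 ± 0.68 over 3 probes and was among the dimmest called. With normexp background correction, which models local background in place of the scanner's subtraction, the calls of Zrsr1, Nicn1, Tmed5 and Mettl23 were lost, at 0.49, 0.68, 0.87 and 0.31.

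Fewer regions were lower, and only 4 of the 14 rested on 3 or more probes. Pear1, a receptor on platelets and endothelium named 3110045G13Rik on the array, held the brightest of these. Its 4 probes read 1670, 76400, 208000 and 53700 at 3 months and 1040, 31600, 97300 and 21700 at 32 months. Each probe was dimmer in the old sample, as a call requires, by -1.19 ± 0.29 for the region. Zfp710, a zinc finger protein, had 331, 2850, 835 and 2620 against 252, 957, 97.1 and 1540, or -1.17 ± 1.20, with a single probe at -3.11. The region of the unnamed transcript 4931414P19Rik was dim, with 273, 239 and 117 against 204, 98.1 and 52.3, or -1.02 ± 0.47, and its call was lost under 4 of 14 other settings. Normexp correction ended the calls of Pear1, at -0.71, and of Zfp710, at -0.44, and the latter was also lost with dim probes kept, at -0.58. Of all 14 lower calls it kept 3, while 75 regions were then called higher. Higher calls made up 76.3% of all inside-gene calls here and 96.2% under normexp, so the split between directions depends on the processing. The normexp run started from mean signals, with an offset of 50 and no scaling between dyes beyond the centring. Which of these steps or the background model moved the split was not tested.

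Arhgef3, whose product activates small GTPases, had the largest lower value, at -2.46 ± 1.43 over 3 usable probes (chr14:26162242-26163234). The probes read 220, 4360 and 82200 at 3 months and 199, 718 and 13100 at 32 months. The change lay wholly in the later part of the region: the probes at offsets 749 and 948 bp had -2.46 and -2.51, the probe at 425 bp had -0.01, and 2 further probes were not above background. Keeping those dim probes ended the call, at -0.09. The pieces are shown because the step from unchanged to dimmer falls between the first and the second line.
Arhgef3, chr14:26162667-26162714: ctatcagCGtttgcctagggtcctggtttc
Arhgef3, chr14:26162991-26163040: CGggatttttgttgtCGcctgaaattagCG
Arhgef3, chr14:26163190-26163234: tcaccctgtgtacCGctCGctttctctcCG
The promoter-bearing region of Arhgef3, 97048 bp away, had 0.08 ± 0.58 over 6 probes.

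Of the lower regions with 2 usable probes, Apobr, a receptor for apolipoprotein B named Apob48r on the array, had the largest value. Its probes read 37500 and 29700 at 3 months and 7660 and 6780 at 32 months, or -2.22 ± 0.11. C2cd2l, a lipid transfer protein at membrane contact sites named Tmem24 on the array, had 9110 and 7770 against 1840 and 1950, or -2.01 ± 0.22. Mgat2, an enzyme of N-glycan synthesis, had 6160 and 29600 against 1260 and 7850, or -1.96 ± 0.26. In all 3 both usable probes were dimmer at 32 months, as a call requires, and the nearest promoter-class probe lay 310, 280 and 620 bp away. The call of Mgat2 was lost under normexp, at -0.94, and that of C2cd2l with dim probes kept, since its remaining, dim probe had 0.04. These 3 were picked from the remaining calls after their values were seen.

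The letters CCCGGG, the recognition site of the enzymes SmaI and XmaI, occurred in usable probes of 30 measured inside-gene regions. The word reads the same on both strands and was searched in the probes alone. None of those 30 was called higher and 2 were called lower, against 45 and 12 of the 2081 without it. Over all measured autosomal regions 2.07% were called higher and 0.526% lower, so 30 regions are too few to read a difference from these counts. The median log2 ratio was 0.05 with the word and 0.01 without it. The 2 were Arhgef3 and C2cd2l, and their probes are shown with that word in capitals.
Arhgef3, chr14:26162991-26163040: ttttaCCCGGGatttttgttgtcgcctgaa
C2cd2l, chr9:44070773-44070817: caaacCCCGGGcatactgcagcatccagcc
Usable probes with the word made up 0.469% in inside-gene regions and 0.234% in promoter-only regions. They were brighter, with a median signal of 2660 against 480.5 for the other inside-gene probes.

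The largest inside-gene difference of all was not a call. The region of Alk, a receptor tyrosine kinase of the developing nervous system, had a median of 5.89 ± 3.1 over 4 probes (chr17:72508354-72509161). Its probes read 300, 20200, 8550 and 15100 at 3 months and 243, 879000, 590000 and 999000 at 32 months. The first probe was alike at both ages, with -0.16, and the other 3 were higher by 5.58, 6.25 and 6.19, so the demand that every probe agree was not met. The nearest promoter-class probe lay 231545 bp away. CpG number over the whole probe did not separate the first probe from the others, since it held 5 and the last held 4. The pieces of these probes printed here hold 4 and 3.
Alk, chr17:72508354-72508398: caggtctCGggcatagaCGCGgaagagCGa
Alk, chr17:72508672-72508719: aatggctccttccactagatctcagggact
Alk, chr17:72508932-72508978: agctctcctcttagcttccaatcttctgca
Alk, chr17:72509116-72509161: aagtcttCGgatCGatcaccctgccCGctg
In all, 15 regions passed the threshold in their median with probes on both sides of 0, 12 of them upward. Polr2i, an RNA polymerase II subunit, followed Alk at 2.64 ± 1.81 over 3 probes. Downward, Ptpn14, a tyrosine phosphatase, had 4 probes from -0.97 to -2.42 and another, much brighter probe at 0.0023, with 216000 against 217000. Alk, Polr2i and Ptpn14 were named after their values were seen.

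Around the threshold the order of regions carries little. Just inside it, among those with at least 3 usable probes, stood Hsdl1 at 1.09 ± 0.16, Fbxl12 at 1.09 ± 1.30 and Cert1, a ceramide transfer protein, at 1.15 ± 0.38. Just short of it stood Gpalpp1 at 0.98 ± 0.44, Lmf2 at 0.97 ± 0.24 and Kiss1r, the kisspeptin receptor, at 0.94 ± 0.30. On the lower side Gpc1, a cell surface proteoglycan, had -0.94 ± 0.07 over 3 probes without a call, with a smaller spread than any lower call with at least 3 usable probes.

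Calls were concentrated among bright regions. When measured autosomal regions of each array were cut into 5 classes of brightness, 30 of the 45 higher and 10 of the 14 lower inside-gene calls fell in the brightest class. In that class 6.12% of 490 inside-gene regions were called higher and 2.04% lower. In the other 4 classes the share called higher ran from 0.519% to 1.15%. Brightness is the mean over both channels, so a region with a large difference is also brighter for it, and the class is no independent measure. With brightness taken from the green 3-month signal alone, the comparison with promoters below had a difference of -2.17 points. CpG-rich regions were brighter (Spearman's rank correlation 0.27 over 2111 regions, a description across regions that share 2 arrays). Of 713 regions with at least 3 CpG sites per 100 bases, 3.37% were called higher and 0.561% lower. Of 509 with fewer than 1 per 100 bases, 0.982% and 0.786% were.

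**Figure D3:**
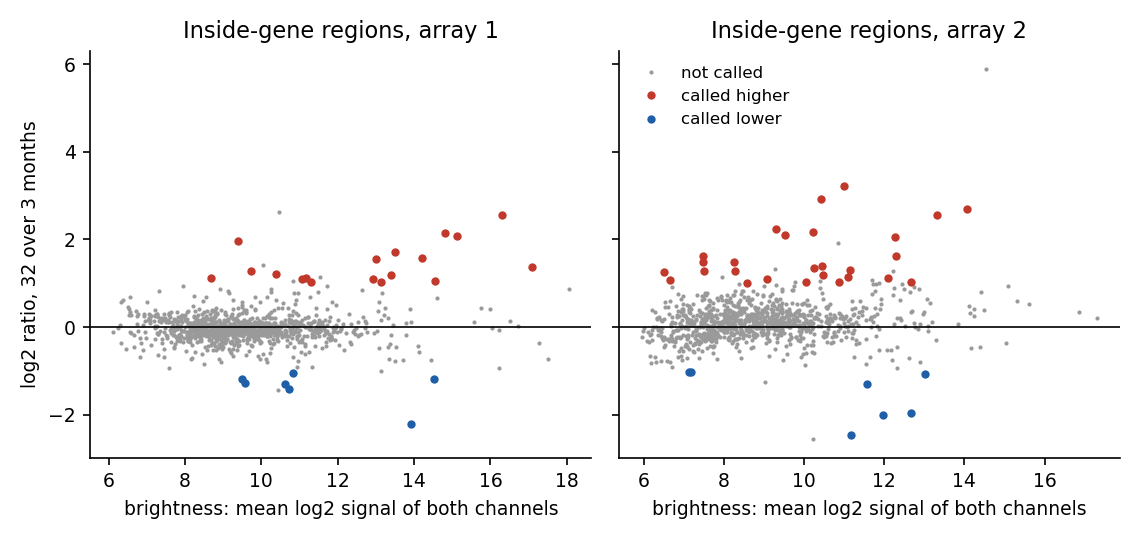
Log2 ratio of 32 over 3 months (y axis) against brightness, the mean log2 signal of both channels (x axis), for the measured inside-gene regions of each array, with regions called higher in red, lower in blue and not called in grey. The 45 higher and 14 lower calls lie mostly toward the bright end, and the grey point at 5.89 on array 2 is Alk.

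Arrays differed slightly in level. The inside-gene median log2 ratio was -0.05 for the first array and 0.12 for the second, against -0.03 and 0.09 for all measured autosomal regions. The first array held 18 higher and 7 lower calls (1.67% and 0.649% of its inside-gene regions), the second 27 and 7 (2.61% and 0.678%). Among all measured autosomal regions the shares were 1.38% and 0.586% on the first array and 2.79% and 0.464% on the second. The larger share called higher on the second array was therefore not particular to inside-gene regions. By chromosome the share called higher, 2.13% over all, ran from 0 on chromosomes 1, 14 and 15 to 8.33% on chromosome 18, where it rested on 3 calls among 36 regions. Chromosome 5 had the most higher calls, 7 of 155 (4.52%), of which Trip6 and Slc12a9 are the single stretch above.

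Promoter-only regions, in which every probe is annotated as promoter, were called higher more often than inside-gene regions. For a fair comparison the promoter-only regions were weighted so that array, brightness class and CpG class were spread as among the inside-gene regions, over 40 cells. At equal brightness, CpG content and array, 2.13% of 2111 inside-gene regions and 4.51% of 2005 promoter-only regions were higher at 32 months, a difference of -2.38 percentage points. The first array gave -1.80 points and the second -2.98. The share called lower was 0.663% against 0.432%, a difference of 0.231 points, but it has no stable sign. It was negative under 5 of 24 other settings, at -0.061 with at least 3 usable probes, -0.109 with no agreement of probes demanded, -0.045 with uncentred or deposited ratios, and -0.016 with gaps of at most 500 bp. The medians, 0.01 and 0.02, differed by less than the middle spread of either class, since the 10th and 90th percentiles of inside-gene regions were -0.34 and 0.49. With 1 sample per age none of these differences could be tested over samples.

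The gap to promoter-only regions was widest among the brightest regions and among those with more probes. In the brightest class 30 of 490 inside-gene regions (6.12%) and 54 of 366 promoter-only regions (14.8%) were called higher. Among regions with exactly 2 usable probes the shares were alike, 2.88% and 2.85%. With 3 probes they were 1.69% and 3.83%, and with 4 or more 1.23% and 4.43%. Weighting by the number of usable probes as well left a difference of -1.82 points. Normexp correction reduced it to -0.81.

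Regions that hold both inside and promoter probes were close to the inside-gene regions. At equal brightness, CpG content and array, 1.88% of 9218 such regions were called higher and 0.480% lower. Against divergent promoters, which lie between 2 genes transcribed away from each other, inside-gene regions had fewer calls in both directions. Their weighted shares were 3.15% higher and 1.28% lower over 1004 regions, and the differences, inside-gene minus divergent, were -1.02 and -0.617 points. For higher calls the first array gave -0.097 points and the second -1.98.

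**Figure D4:**
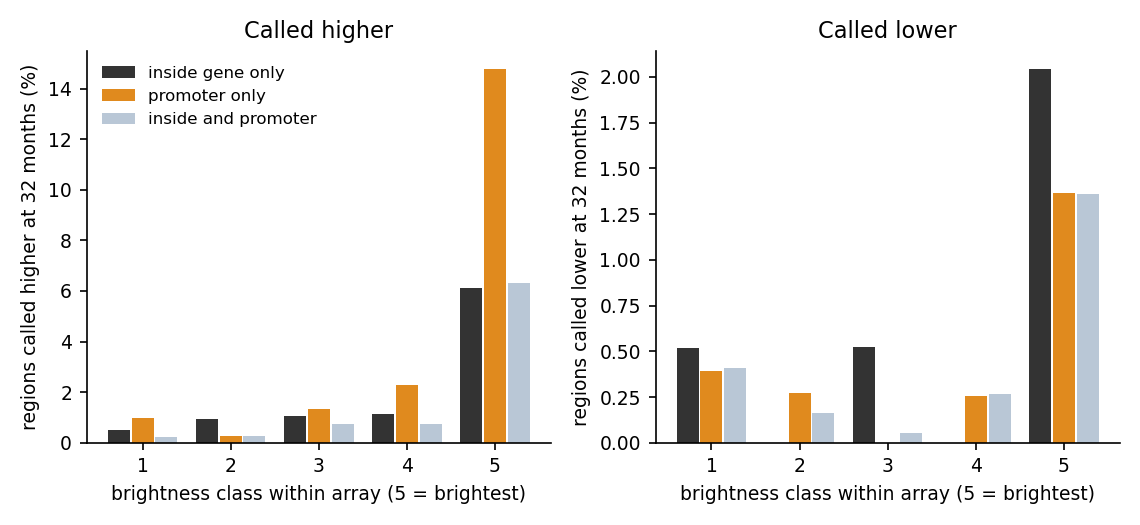
Percent of measured autosomal regions called higher (left) and lower (right) at 32 months, by brightness class within an array (x axis, 5 is brightest), for regions with only inside-gene probes (black), only promoter probes (orange) and both (grey-blue). In class 5, 6.12% of inside-gene, 14.8% of promoter-only and 6.31% of mixed regions were called higher.

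The class INSIDE does not mean far from a promoter. Of the 2111 measured regions, 1118 (53.0%) lay within 1000 bp of a probe of some promoter class under another gene name, at a median distance of 206 bp. For 1054 (49.9%) the gene's only promoter probes were filed under a divergent pair. A further 759 lay over 10000 bp away. Regions within 1000 bp were richer in CpG, with a median of 2.63 against 1.69 per 100 bases for those over 10000 bp away, and brighter, at 643 against 401 at 3 months. Of the near regions 2.50% were called higher and 0.716% lower, and of the far ones 1.45% and 0.527%. The 993 regions over 1000 bp away from promoter probes had a weighted difference to promoter-only regions of -2.17 points in the share called higher, close to that of all inside-gene regions. The array design does not state exon, intron or UTR for a probe. By sequence, 420 of the 6391 usable probes (6.57%) matched a RefSeq promoter window, which runs from shortly before to shortly after a gene's start, against 17.97% of the probes of promoter-only regions. The 375 regions with such a probe held 5 higher and 3 lower calls, and the 1736 without one held 40 and 11. Over all measured autosomal regions 2.07% were called higher and 0.526% lower, and counts this small do not set the 375 apart.

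Calls inside a gene were also set beside those at its promoter, leaving out promoters filed under a divergent pair. In 352 genes an inside-gene region had a promoter-bearing region of the same name, which gave 371 pairs at a median gap of 13368 bp. In no pair were both called. The inside region alone was called in 9 pairs and the promoter-bearing region alone in 15, and with so few calls the lack of a pair called on both says little. Across pairs Spearman's rank correlation was 0.16 and Pearson's r 0.10, as a description over regions from the same DNA, and the rank correlation was 0.03 over 192 pairs of the first array and 0.16 over 179 of the second. Over the 154 pairs within 10000 bp it was 0.26, and over the 217 further apart 0.08.

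In the 15 pairs with a called promoter, the inside region lay between -0.59 and 0.78. Grb10, an imprinted growth regulator, had 3.83 ± 0.31 over 3 promoter probes and 0.52 ± 0.39 over 3 probes inside, 8857 bp away. Efna5, a guidance ligand, had 4.02 ± 1.77 over 5 promoter-bearing probes and -0.06 ± 0.04 over 2 inside. Kcnc1, a voltage-gated potassium channel, had 2.54 ± 1.01 at the promoter and -0.39 ± 1.00 over 7 probes inside. Rgs3, a regulator of G protein signalling, had 0.78 ± 0.86 over 7 probes inside, not called. Of its 2 promoter-bearing regions, the one 53040 bp away had -1.10 ± 0.61 over 7 probes and the one 112898 bp away 0.41 ± 0.96 over 2. Grb10, Efna5, Kcnc1 and Rgs3 were named after their values were seen.

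**Figure D5:**
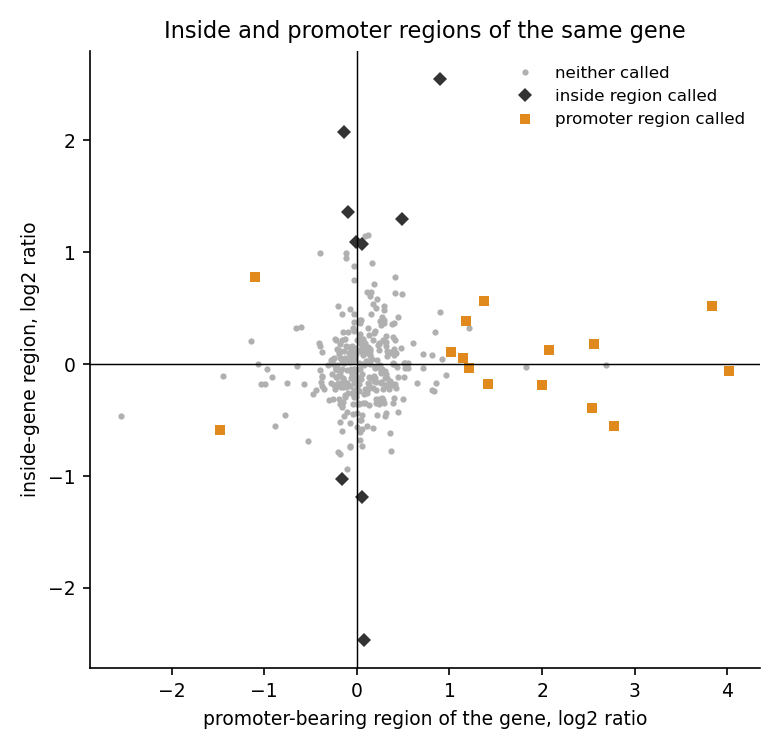
Log2 ratio of the inside-gene region (y axis) against that of the promoter-bearing region of the same gene (x axis) for 371 pairs, with pairs in which the inside region was called as black diamonds, those in which the promoter-bearing region was called as orange squares and the rest in grey. The called points lie along the axes, and no pair is called on both.

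Neighbouring regions of another name gave a further view of how far a difference reaches. Of the 59 called inside-gene regions, 38 had a measured region of another name within 5000 bp. In 7 of the 38 a neighbour was called in the same direction, in 1 a neighbour was called the other way as well, and 31 had no called neighbour. Trip6 and Slc12a9, a single stretch, are both among the 7, each as the neighbour of the other. How often uncalled regions have a called neighbour was not counted, so the 7 have no baseline. At divergent promoters inside and promoter regions were called together at Spsb3, Lrrc41 and Hsp90b1, the first 2 of them named after their values were seen. Spsb3, an adaptor of ubiquitin ligases, was lower by -1.30 ± 0.10 over 2 probes, and the divergent promoter it shares with Nubp2, 272 bp away, by -1.37 ± 0.35 over 4, though normexp ended the inside call, at -0.38. Lrrc41 was higher by 1.02 ± 0.30 over 2 probes, and its divergent promoter with Uqcrh by 1.71 ± 0.60. At Hsp90b1 the sign changed within a short distance. The divergent promoter shared with Gnn, 245 bp from the inside region, was higher by 1.68 ± 0.34 over 2 probes, and the region named for Gnn alone, 682 bp from it, was lower by -1.74 ± 1.33 over 3.

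Few members of the listed gene groups had an inside-gene region, so the groups can be described gene by gene. Medians below stand against 0.01 for all measured inside-gene regions. Of the 177 listed developmental transcription factors 6 had a measured inside-gene region, with a median of -0.01. The LIM homeobox gene Lmx1b was the only call, with 22000 and 5380 at 3 months against 60300 and 17700 at 32 months, or 1.58 ± 0.19 over 2 probes. The other 5, Bcl11a, Dlx4, Foxc2, Sox6 and Zic4, lay between -0.24 and 0.42. The 150 regions of listed factors in other classes had a median of 0.25 with 27 called higher and 1 lower. Over all 14443 measured autosomal regions, 2.07% were called higher and 0.526% lower. The 150 regions were not matched for brightness or CpG content, and their list was chosen with earlier results of these data known. The Hox genes with an inside-gene region were Hoxd4 at 0.87 ± 1.02 over 7 probes, Hoxb2 at 0.44 ± 0.61 and Hoxb8 at -0.02 ± 0.32, none called.

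Among the listed immune genes with an inside-gene region, Ltb was called higher. Ltb, lymphotoxin beta, which directs the formation of lymphoid tissue, had 3510 and 2540 against 9190 and 7680, or 1.63 ± 0.15 over 2 probes. The T cell coreceptor Cd4 had -0.23 ± 0.95. Cell shares were not measured and their part in these values was not tested. Smooth muscle and stromal genes had 5 regions between -0.37 (Pdgfra) and 0.43 (Pdgfrb), with Myh11 at 0.13 and Actg2 at 0.05, and no call. No listed gene of enteric neurons or glia had a measured inside-gene region.

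Matrix genes had 10 such regions, and Col4a2, a collagen chain of basement membranes, was the only call. Its probes read 344 and 329 at 3 months and 1530 and 1150 at 32 months, or 1.97 ± 0.25 over 2 probes, with 0.98 and no call under normexp. The inside region of Col4a1, which encodes its partner chain, had -0.05 ± 0.06, and those of Col4a3 and Col4a4 had -0.17 and -0.36. Of 10 regions of ion channels and transmitter receptors Kcnk4 alone was called, and the other 9 had values between -0.55 (Grik1) and 0.35 (Grm8).

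The 10 imprinted genes had 11 regions, of which Zrsr1 was called. Igf2 had -0.11 ± 0.10 over 4 probes, Mest 0.18 ± 0.32 and Usp29 -0.42 ± 0.51, and the pair of Slc38a4 regions had 0.23 and -0.73. Genes of the methylation machinery and chromatin had 9 regions with a median of 0.23 and no call. Dnmt3a, a de novo methyltransferase, had 0.32 ± 0.79 over 2 probes, Hdac5 0.28 ± 0.07 over 4 and Smarca4 -0.11 ± 0.55. Of the genes listed as methylation markers of colorectal cancer, Igf2 and the helicase gene Wrn, at 0.37 ± 0.10 over 2 probes, were not called. Signalling genes had 6 regions between -0.35 (Bmpr1b) and 0.13 (Wnt7b), adhesion and guidance genes 8 between -0.26 (Cntnap2) and 0.24 (Cdh8), and housekeeping genes 6 between -0.32 (Polr2b) and 0.42 (Eef2), without a call. The germ line list held a single region, that of Oosp1, at -0.02.

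Across all measured inside-gene regions 857 (40.6%) had usable probes of a single sign, 474 upward and 383 downward, and 14.8% had a median beyond 0.5 in either direction. Among all measured autosomal regions these shares were 27.7% and 13.5%, and among promoter-only regions 35.6% and 17.0%. A single sign is reached more easily with fewer probes. The median number of usable probes was 3 in inside-gene and promoter-only regions and 4 over all, so the first shares are not like for like.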

How the data were processed

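Genomic DNA of 3-month and 32-month intestine was measured on 2 arrays, with 1 sample per age and array. The intensity values deposited by the authors were quantified, per the submitters' processing notes, with Agilent Feature Extraction 9.1.3.1, and the processed signals were used. Per the file headers these are background-subtracted and scaled between dyes. The deposited log10 ratio served as an alternative only. The authors' value table equalled the processed signals in 100% of spots.

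Log2 red over green was centred on the array median over all positioned probes, at 0.0044 (first array) and -0.14 (second). A fold printed here is after centring. Of 83122 probes 271 had no position. Probes without an annotation class carry names of their own and formed regions of 1 probe. Cells for weighting needed at least 10 comparison regions.

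Named regions are, among those with at least 3 usable probes, the 12 largest called differences per direction, the 3 dimmest and 3 brightest called and the 3 nearest the threshold on each side, and up to 3 called members per list with at least 2 usable probes. All other called regions and pairs were named after their values were seen. Members and lists were chosen with earlier results of these data known. The centring set was settled after both counts had been seen: 39 higher and 15 lower with the median of usable probes, 45 and 14 here. CpG classes, distance classes, pairs, neighbours, CCCGGG and promoter windows were also chosen after the data were seen. Of the names of measured genes, 1544 were current, 431 were updated through RefSeq GRCm38.p6, 62 were kept and 3 had become dates. Calls and weighting were tested on simulated data. Tools were Python 3.11.15 with pandas 2.3.3 and, for normexp, limma 3.58.1. Some results are not reported here.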

Additional observations from a re-analysis of the deposited data

How the results depend on the processing

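No paired analysis was possible because there is 1 sample per age and array, and no replicate could be left out. The share of inside-gene regions called higher stayed below that of promoter-only regions under all 24 other settings, between -2.98 and -0.81 points. It moved to -0.81 with normexp, -1.45 at a 1.5-fold threshold, and -1.52 and -1.70 when weighted by array only and by array and CpG. The counts of higher and lower calls were 75 and 3 with normexp, 126 and 61 at 1.5-fold, 16 and 4 with at least 3 usable probes, 18 and 7 in array 1 alone, 27 and 7 in array 2 alone, and 17 and 6 over 1000 bp from promoter probes. Gaps of 500 bp gave 74 higher and dim probes kept gave 9 lower calls. Uncentred and deposited ratios each gave 37 and 17, and usable-probe centring 39 and 15. The median moved to -0.034 uncentred, -0.033 with the deposited ratio, 0.047 with loess, 0.14 with normexp, -3.3e-05 with dim probes kept, and -0.047 and 0.12 on the single arrays. Its difference to promoter-only regions has no stable sign: 0.0093 with normexp, -0.020 with 3 probes, -0.029 and 0.048 on the single arrays. The cause of these moves was not tested. Of the 59 called regions 24 were called under every alternative run for them, 19 lost the call under 1 and 16 under 2 or more. The 1.5-fold threshold, no agreement demanded and the value table, which equals the processed signals, could not end a call. With at least 3 usable probes, the 29 higher and 10 lower calls with 2 usable probes were not measured. That setting was not counted against them, so these counts overstate stability. Only Arsb turned its sign, to -0.046 with normexp. Signal over background and the number of arrays limit the precision, most of all in dim regions: 1 higher call, Mthfd1, had no probe well above background at 3 months.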
